A study of Mus musculus with 6 samples.

Results

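Histone lysine methyltransferases and demethylases were followed in R1 mouse embryonic stem cells carrying a short hairpin RNA (shRNA) against KIAA1718, compared with R1 cells carrying an shRNA against luciferase. The 45 genes were taken from a list and read through gene symbols, with each gene represented by the probe set with the highest mean over the 6 arrays. A probe set of their own was found for 43 of them, among 18193 genes named on the array, and 41 had enough signal to be tested, among 12740 genes tested. Suv39h1 and Ash1l had no probe set of their own symbol and were not analysed here. Prdm9 and Kdm4d had probe sets below the filter on low signal. Prdm9, which marks recombination sites in meiotic germ cells, had normalized signals of 0.906 to 5.04. Kdm4d, a small relative of the Kdm4 demethylases, had 0.522 to 6.01.

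Methyl groups on histone lysines are written mostly by SET-domain enzymes, which draw the methyl group from S-adenosylmethionine, and by Dot1l, whose catalytic domain is of another fold. They are erased by the flavin-dependent amine oxidases Kdm1a and Kdm1b and by the JmjC-domain family, oxygenases that need iron and 2-oxoglutarate. Methylation of H3K4 and H3K36 is found mostly at active genes, that of H3K9 in heterochromatin and that of H3K27 at polycomb targets, and embryonic stem cells are known for developmental promoters that carry both H3K4 and H3K27 methylation. KIAA1718 is the protein of Kdm7a, a JmjC demethylase of H3K9 and H3K27.

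RNA was measured on 6 Affymetrix Mouse Genome arrays, 3 from each group. In both groups the shRNA was delivered by a lentivirus and the infected cells were sorted for GFP, so virus, GFP and sort are shared. The labels give the same cell type and line for both groups, and each group carried a single hairpin. The labels do not say whether the 3 arrays of a group stem from separate cultures, so the p-values below refer to the spread between these samples only, and part of that spread may be technical. With a single hairpin per group, its effects on other transcripts and those of targeting KIAA1718 cannot be told apart. Groups are named as labelled.

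The arrays differed in scale, with medians of the deposited signal from 9.58 to 13.3, and were therefore quantile-normalized. Signals below are normalized ones. Correlations between arrays were 0.983 to 0.988 within groups and 0.976 to 0.985 between them. The target gene did not check the labels: Kdm7a had normalized signals of 38.5, 37.0 and 39.2 on luciferase replicates 1, 2 and 3 and of 42.2, 23.0 and 30.2 on KIAA1718 replicates 1, 2 and 3 (log2 difference -0.20, 95% interval -0.54 to 0.13, limma adjusted p = 0.533). All 12 embryonic stem cell markers were measured, with deposited signals of at least 198. Of these 2, Fgf4 and Utf1, were lower and 10 of 12 lay below 0 (4.87% of all genes tested were called in either direction). Their mean normalized log2 signal was 10.07 to 10.14 on luciferase arrays and 9.85 to 9.95 on KIAA1718 arrays, without overlap (difference -0.20, two-sided exact permutation p = 0.1, the smallest that 3 against 3 arrays allow), while their summed deposited signal, which is not scaled between arrays, was 14196 to 17152 and 14562 to 16238. Of 12 primitive endoderm markers 5 were lower (Lamc1, Sox7, Pdgfra, Dab2 and Lama1) and all 12 lay below 0. Their mean was 6.40 to 6.60 against 6.04 to 6.11, again without overlap (difference -0.42, exact p = 0.1), and their summed deposited signal 1360.1 to 2018 against 1273 to 1442. Of 25 fibroblast markers 1 was lower, Pdgfra again, and 23 lay below 0, with overlapping means (difference -0.39, exact p = 0.3) and sums of 8598 to 16106 against 8824 to 12549. No marker was listed at 0. Over 17 alternative settings, described below, Fgf4 lost its call in 1 and Utf1 in 10. Sox7 lost it in 3, Lamc1 in 5, Dab2 in 9 and Lama1 in 11, and Pdgfra in 9 of 16. The part of these markers in the results below was tested only as a fibroblast covariate, and in bulk RNA fewer cells of a type and less RNA per cell cannot be told apart.

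Of the 41 tested members, 3 were lower and 1 was higher in cells with the KIAA1718 shRNA. The H3K9 methyltransferase gene Ehmt2, the H3K36 methyltransferase gene Smyd2 and the H3K4 methyltransferase gene Setd1b were lower, and the methyltransferase gene Setd7 was higher. All 4 encode methyltransferases, of 24 tested. None of 16 tested demethylase genes passed the threshold, an adjusted p of 0.05 (3 of the 16 had an unadjusted limma p under 0.05). This depended on the probe set. At the next brightest one the demethylase gene Kdm6b was lower (limma adjusted p = 0.0429) and Ehmt2 did not pass (limma adjusted p = 0.147). A call was made for 9.76% of members, against 4.87% of all genes tested (2.68% higher and 2.19% lower). The median log2 difference of the members was -0.10, against 0.00113 for all genes tested, and 26 of 41 lay below 0. With unscaled signals, where the median of all genes was 0.11, that of the members was 0.028 and 19 of 41 lay below 0. The groups did not overlap for 18 members, or 43.9% of members, against 27.9% of all genes. KIAA1718 arrays were the lower ones for 13 of these and the higher ones for 5, against 13.4% and 14.5% of all genes. An unadjusted limma p under 0.05 was reached by 15 of 41 members and by 22.0% of all genes. No difference between methyltransferase and demethylase genes was tested. The member count was 0 with unscaled signals and 1 with the fibroblast marker mean as a covariate or without a filter on low signal. Without luciferase replicates 2 or 3 or KIAA1718 replicate 3 it was 1, and without KIAA1718 replicates 1 or 2 it was 2.

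**Figure D1:**
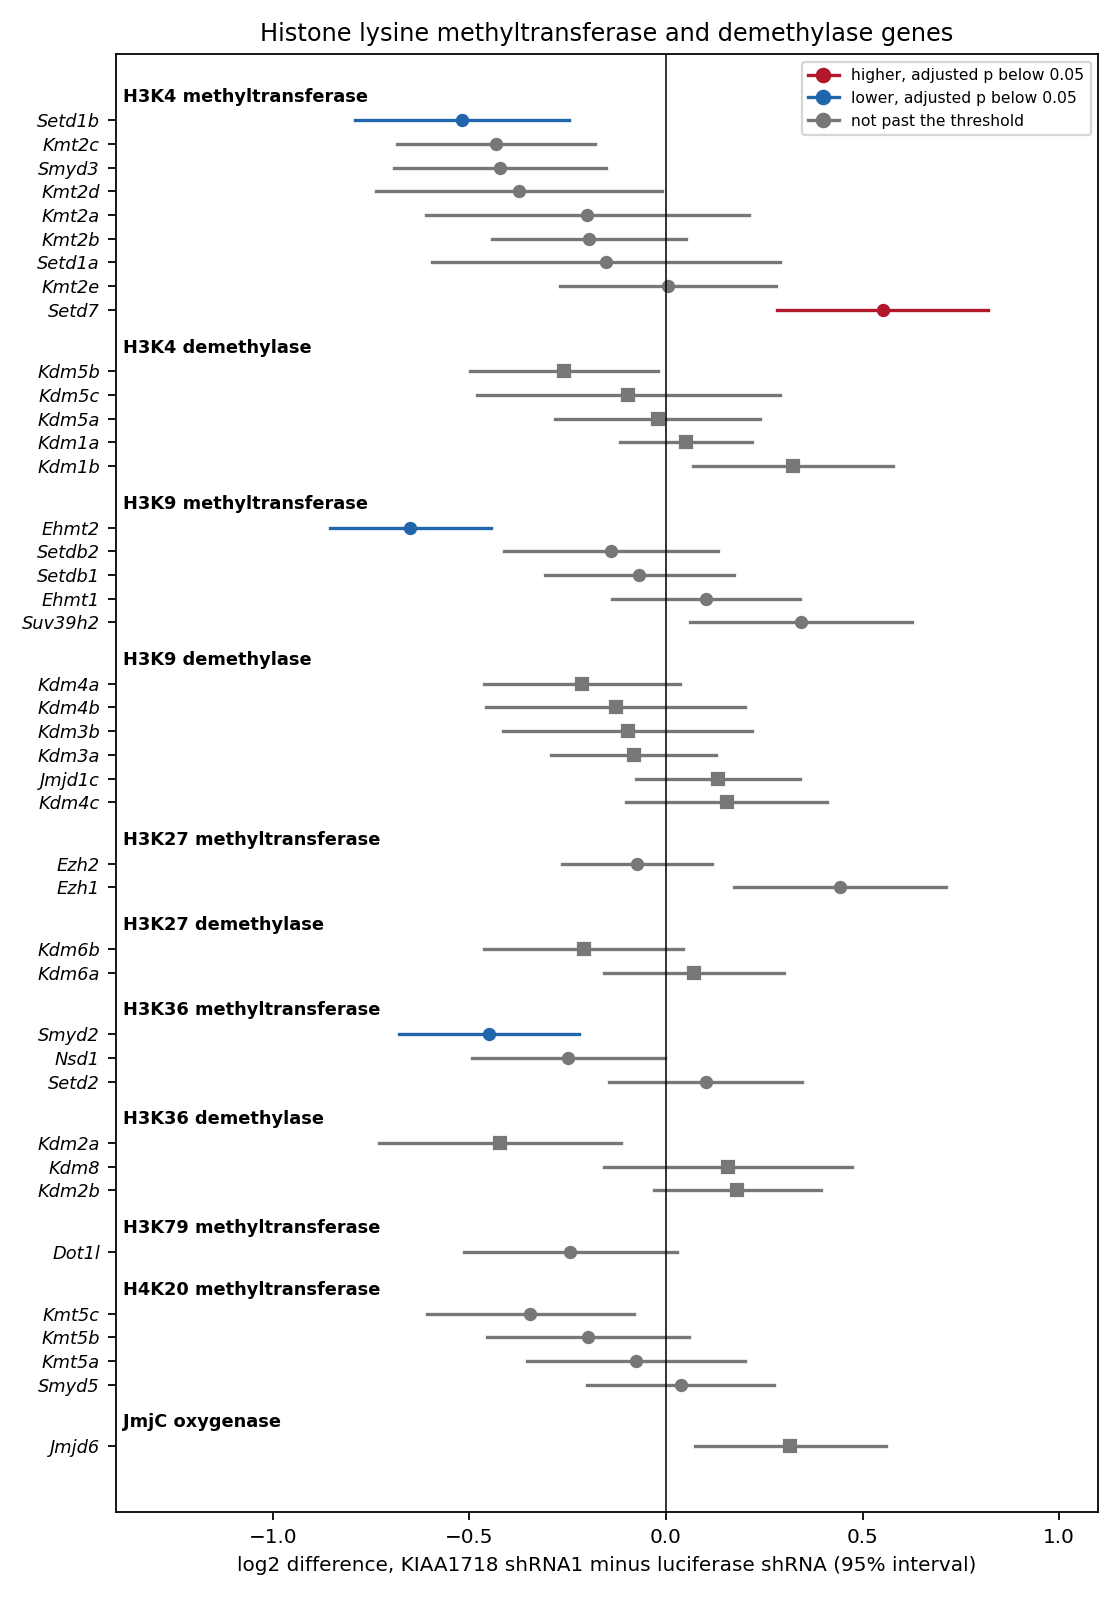
Log2 difference between KIAA1718 shRNA1 and luciferase shRNA (x axis, log2 of normalized signal + 16) for each of the 41 tested genes, grouped by the lysine acted on. Points are estimates from 3 arrays a group and lines are 95% intervals; circles are methyltransferases and squares are demethylases or Jmjd6. Ehmt2 lies furthest to the left at -0.65 and Setd7 furthest to the right at 0.55.

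Ehmt2 encodes G9a, the main enzyme for mono- and dimethylation of H3K9 in euchromatin, where it acts with its partner Ehmt1. Its probe set (Entrez gene 110147, chromosome 17) had normalized signals of 451, 447 and 429 on luciferase replicates 1, 2 and 3 and of 292, 278 and 259 on KIAA1718 replicates 1, 2 and 3. Every KIAA1718 array lay below every luciferase array, and the spread within each group was small beside the gap. The means were 442 ± 11.7 and 276 ± 16.4 (SD, n = 3), a log2 difference of -0.65 ± 0.09 (SE) or 0.637 times the control level (limma adjusted p = 0.00395). A further probe set, with a dimmer signal of 62.6 ± 8.76 in controls and 42.7 ± 9.81 with the KIAA1718 shRNA (SD, n = 3), differed in the same direction, by -0.43 (adjusted p = 0.147). The call held without any 1 array (adjusted p of 0.00975 to 0.0278) and with the fibroblast covariate (-0.69, adjusted p = 0.0250), and was lost with unscaled signals (-0.51, adjusted p = 0.114).

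Smyd2 encodes a methyltransferase of H3K36 that also modifies non-histone proteins, p53 among them. Its single probe set (Entrez gene 226830) had normalized signals of 367, 444 and 419 on luciferase replicates 1, 2 and 3 and of 288, 319 and 279.8 on KIAA1718 replicates 1, 2 and 3. The groups did not overlap, although luciferase replicate 1 lay nearer to the KIAA1718 arrays than the other controls. The log2 difference was -0.45 ± 0.10 (SE, adjusted p = 0.0401). Smyd2 lies on chromosome 1, where 73.4% of 721 tested genes were below 0 and the median difference was -0.13. The other tested members on that chromosome, Smyd3 and Kdm5b, were below 0 as well. With each array centred on the median of each chromosome the difference of Smyd2 was -0.31 (adjusted p = 0.151). The call was also lost without luciferase replicates 2 or 3 or KIAA1718 replicates 1 or 3 (adjusted p of 0.09997 to 0.153) and with the fibroblast covariate (-0.34, adjusted p = 0.250). Unscaled signals, no filter on low signal and a fit without intensity trend lost it too. The highest adjusted p of Smyd2 over the alternatives was 0.416.

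Setd1b encodes a catalytic subunit of the COMPASS complexes, which trimethylate H3K4 at promoters. Its probe set (Entrez gene 208043, chromosome 5) had normalized signals of 134, 153 and 154 on luciferase replicates 1, 2 and 3 and of 107, 103 and 84.6 on KIAA1718 replicates 1, 2 and 3. All KIAA1718 arrays were below all controls, with a log2 difference of -0.52 ± 0.12 (SE, adjusted p = 0.0442). A further probe set also passed, at -0.88 ± 0.21 (adjusted p = 0.0409), with signals of 131, 134 and 158 against 94.3, 41.2 and 80.8. That larger difference rested in part on KIAA1718 replicate 2, the lowest of the 6. The call of the brighter probe set was lost without any 1 of the 6 arrays (adjusted p of 0.0549 to 0.167) and with the fibroblast covariate (-0.48, adjusted p = 0.197), with the direction kept in each. Unscaled signals, a pseudocount of 1, no filter on low signal and a fit without intensity trend lost it too. The highest adjusted p of Setd1b over the alternatives was 0.327.

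Setd7 encodes a monomethyltransferase of H3K4 that acts largely on non-histone proteins. It was the member that rose. Its probe set (Entrez gene 73251, chromosome 3) had normalized signals of 68.0, 61.0 and 59.0 on luciferase replicates 1, 2 and 3 and of 88.6, 106 and 104 on KIAA1718 replicates 1, 2 and 3. The groups were clearly apart, with KIAA1718 replicate 1 the nearest to the controls. The mean went from 62.7 ± 4.72 to 99.5 ± 9.46 (SD, n = 3), a log2 difference of 0.55 ± 0.12 (SE) or 1.47 times the control level (limma adjusted p = 0.0331). The call was lost without luciferase replicates 2 or 3 or KIAA1718 replicates 2 or 3 (adjusted p of 0.0866 to 0.136), with the fibroblast covariate (0.53, adjusted p = 0.149), with unscaled signals (0.66, adjusted p = 0.0634) and with each array centred on the median of each chromosome (0.51, adjusted p = 0.0556). It was also lost without a filter on low signal. A second Setd7 probe set, below that filter and not tested, ran the other way without overlap. Its signals were 8.06, 6.68 and 8.20 in controls and 6.11, 5.23 and 4.20 with the KIAA1718 shRNA.

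**Figure D2:**
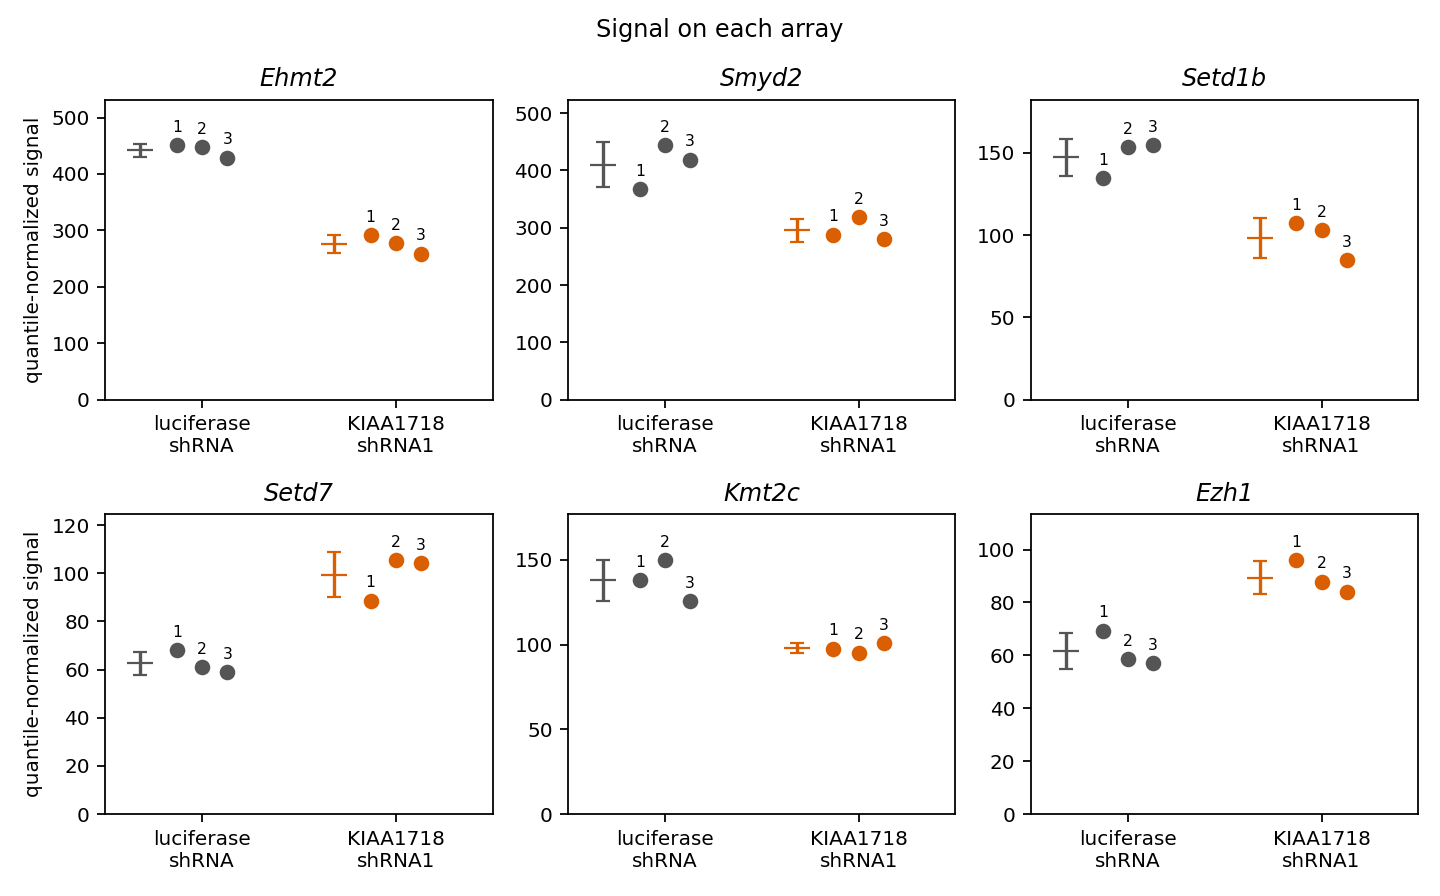
Quantile-normalized signal (y axis, linear, from 0) on each of the 6 arrays for Ehmt2, Smyd2, Setd1b and Setd7, which passed the threshold, and for Kmt2c and Ezh1, which did not. Points are arrays labelled by replicate number, and bars beside them are the group mean and SD (n = 3). In all 6 genes the groups do not overlap.

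The promoters of the changed members are shown for the genes with an entry in the RefSeq promoter table (GRCm38.p6), from 250 bases before the annotated start to 50 after it, 5′ to 3′ on the gene's strand. Of 45 members 34 had an entry, and of the 4 changed members Ehmt2, Smyd2 and Setd7. Where a gene had several starts, as Ehmt2 did, the first listed was used. Capitals mark the GC box GGGCGG or its complement CCGCCC, read on both strands.
Ehmt2, chr17:34898224-34898523, plus strand: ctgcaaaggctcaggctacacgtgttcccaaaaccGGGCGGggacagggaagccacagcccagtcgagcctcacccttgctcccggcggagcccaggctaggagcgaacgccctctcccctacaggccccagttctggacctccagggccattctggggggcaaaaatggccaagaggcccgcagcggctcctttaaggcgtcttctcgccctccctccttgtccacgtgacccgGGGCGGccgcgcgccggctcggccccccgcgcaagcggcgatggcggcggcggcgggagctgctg
Smyd2, chr1:189922242-189922541, minus strand: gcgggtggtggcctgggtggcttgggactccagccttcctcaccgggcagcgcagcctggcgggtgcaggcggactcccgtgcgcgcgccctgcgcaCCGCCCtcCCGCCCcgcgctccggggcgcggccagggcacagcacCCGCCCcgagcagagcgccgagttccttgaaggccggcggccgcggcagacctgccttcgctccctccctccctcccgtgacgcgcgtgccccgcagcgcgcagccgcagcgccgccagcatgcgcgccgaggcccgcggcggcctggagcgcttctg
Setd7, chr3:51560774-51561073, minus strand: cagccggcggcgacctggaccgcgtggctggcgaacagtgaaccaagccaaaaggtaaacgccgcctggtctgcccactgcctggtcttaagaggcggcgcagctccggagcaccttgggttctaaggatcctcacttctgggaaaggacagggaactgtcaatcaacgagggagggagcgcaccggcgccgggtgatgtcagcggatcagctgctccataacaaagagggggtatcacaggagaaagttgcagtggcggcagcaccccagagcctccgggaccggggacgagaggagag

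The Ehmt2 window held 2 GC boxes and 28 CpG dinucleotides, the Smyd2 window 3 and 43, and the Setd7 window none and 21. Windows of the 34 members held a median of 24 CpG, against 7 over 27025 genes. A GC box was found in 61.8% of member windows and in 35.9% of all windows. The CCAAT box (CCAAT or ATTGG) was found in 41.2% and 37.9%, the E-box CACGTG in 5.88% and 7.24%, and the cyclic AMP response element TGACGTCA in 2.94% and 1.88%. The Esrrb motif TCAAGGTCA, read on both strands, was in no member window and in 0.407% of all, and the STAT motif TTCCNGGAA in no member window and in 1.15% of all. These are matches of letters and describe the windows only.

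Among the other H3K4 methyltransferase genes, differences were mostly downward and did not pass. Kmt2c encodes one of the enzymes of enhancer monomethylation. Its normalized signals were 138, 150.0 and 126 on luciferase replicates 1, 2 and 3 and 97.6, 95.3 and 101 on KIAA1718 replicates 1, 2 and 3. The groups did not overlap and the log2 difference was -0.43 ± 0.11 (SE, adjusted p = 0.0635, and 0.0462 when the 60% of probe sets with the lowest signal were left out). Its further probe sets gave -0.29 to 0.04. Smyd3, which encodes a SET and MYND domain enzyme, went from 60.03 ± 2.78 to 40.8 ± 4.57 (SD, n = 3; log2 difference -0.42, adjusted p = 0.0858), again without overlap. Smyd3 lies on chromosome 1, and centred on its chromosome it differed by -0.28 (adjusted p = 0.271). Kmt2b, which encodes an enzyme of the mixed lineage leukaemia family, differed by -0.20 (adjusted p = 0.383). In all, 7 of 9 tested H3K4 methyltransferase genes were below 0, with a median of -0.20, and 1 fell and 1 rose. With unscaled signals 7 of 9 were below 0 as well, with a median of -0.082.

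The 5 H3K4 demethylase genes showed no call. Kdm1b, which encodes the amine oxidase known for its role in oocytes, had normalized signals of 59.2, 61.9 and 60.1 in controls and of 81.3, 83.4 and 74.3 with the KIAA1718 shRNA. The groups did not overlap, with a log2 difference of 0.32 ± 0.12 (SE, adjusted p = 0.156). Its relative Kdm1a, which encodes LSD1, had signals of 895 to 1020.4 in controls and 977 to 1035 with the KIAA1718 shRNA, and differed by 0.051 (95% interval -0.12 to 0.22). The name of that Kdm1a probe set marks a sequence shared between transcripts. The dimmer probe set of Kdm1a differed by -0.25 without overlap (95% interval -0.48 to -0.02, adjusted p = 0.226). Kdm5a, Kdm5b and Kdm5c encode JmjC demethylases of H3K4, and their mean control signals were 173, 677 and 111. Kdm5a and Kdm5c differed by -0.021 and -0.096. Kdm5b, on chromosome 1, differed by -0.26 (95% interval -0.50 to -0.02, adjusted p = 0.226), with overlapping groups. All 4 of its tested probe sets were below 0, the second brightest at -0.47 without overlap (adjusted p = 0.0830).

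In the H3K9 group, Ehmt2 was the only call among 11 tested genes. Suv39h2, which encodes a trimethylating enzyme of pericentric heterochromatin, had signals of 98.9, 76.0 and 96.3 in controls and of 108, 119.7 and 127 with the KIAA1718 shRNA (log2 difference 0.34 ± 0.13, SE, adjusted p = 0.175). All 3 of its probe sets were above 0. Ehmt1 encodes GLP, the partner of G9a. Its signals were 382, 325 and 308 in controls and 379, 332 and 378 with the KIAA1718 shRNA, and the groups overlapped (log2 difference 0.10, 95% interval -0.14 to 0.34). Among the H3K9 demethylase genes Kdm4a was lower without overlap, at 70.4 ± 1.85 and 58.5 ± 0.932 (SD, n = 3), but the log2 difference was only -0.21 (adjusted p = 0.347). Kdm4c differed by 0.15 (adjusted p = 0.527). All 6 tested H3K9 demethylase genes had intervals inside -0.5 to 0.5.

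No H3K27 gene was called. Ezh1, which encodes the less active catalytic subunit of polycomb repressive complex PRC2, had signals of 69.3, 58.5 and 56.9 on luciferase replicates 1, 2 and 3 and of 96.1, 87.9 and 84.1 on KIAA1718 replicates 1, 2 and 3. Every KIAA1718 array was above every control, with a log2 difference of 0.44 ± 0.12 (SE, adjusted p = 0.0727). With replicate number as a block the adjusted p of Ezh1 was 0.0498. Ezh1 lies on chromosome 11, where the median of 1051 tested genes was 0.14, and centred on its chromosome it differed by 0.30 (adjusted p = 0.231). Ezh2, which encodes the main catalytic subunit in dividing cells, had means of 688 ± 46.8 and 653 ± 36.7 (SD, n = 3) and differed by -0.073 (95% interval -0.26 to 0.12). With unscaled signals Ezh2 differed by 0.062, where the median of all genes was 0.11. Kdm6a, which encodes UTX, had a log2 difference of 0.072 (95% interval -0.16 to 0.30). The stress- and signal-responsive demethylase gene Kdm6b differed by -0.21 (adjusted p = 0.366) at its brightest probe set, and by -0.57 (adjusted p = 0.0429) at the next. That next probe set had signals of 52.8, 46.3 and 42.8 in controls and of 31.6, 22.1 and 26.7 with the KIAA1718 shRNA, and its name carries the suffix for possible cross-hybridization. Its dimmest tested probe set lay at -0.40 (adjusted p = 0.152).

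Besides Smyd2, the H3K36 group held Kdm2a, which encodes a CpG island-binding demethylase, with signals of 137, 162 and 128 in controls and of 121, 84.9 and 102 with the KIAA1718 shRNA (log2 difference -0.42 ± 0.14, SE, adjusted p = 0.127). Kdm2a and Kmt5b lie on chromosome 19, where 76.4% of 458 tested genes were below 0, and centred on their chromosome they differed by -0.27 and -0.047. Kdm2b, the paralogue that recruits a polycomb complex to CpG islands, differed by 0.18 (adjusted p = 0.347). Nsd1, which encodes a dimethylating enzyme of H3K36, differed by -0.25 (adjusted p = 0.263). Setd2, whose product is the trimethylating enzyme, had means of 169.9 ± 12.6 and 183 ± 13.8 (SD, n = 3), with overlapping groups.

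Dot1l, which encodes the H3K79 methyltransferase, had signals of 81.1, 76.4 and 73.2 in controls and of 71.1, 56.8 and 60.1 with the KIAA1718 shRNA. These did not overlap, but the log2 difference of -0.24 did not pass (95% interval -0.51 to 0.03, adjusted p = 0.319). Of the H4K20 methyltransferase genes, Kmt5c, which encodes an enzyme of di- and trimethylation, differed by -0.34 (adjusted p = 0.144) and Kmt5b by -0.20 (adjusted p = 0.398). Kmt5c had signals of 226, 196 and 201 in controls and of 184, 149 and 149 with the KIAA1718 shRNA, without overlap. The monomethylating enzyme gene Kmt5a and Smyd5 had mean control signals of 273 and 254, and their groups overlapped at these probe sets. A second Kmt5a probe set had signals of 155, 166 and 158 in controls and of 130, 122 and 113 with the KIAA1718 shRNA. There the groups did not overlap (log2 difference -0.35, adjusted p = 0.107). Jmjd6, which encodes a JmjC oxygenase that hydroxylates lysines of splicing factors, had signals of 214, 181 and 223 in controls and of 251, 274 and 254 with the KIAA1718 shRNA (log2 difference 0.32, adjusted p = 0.148), and its second tested probe set gave 0.31. Jmjd6 also lies on chromosome 11, and centred on it differed by 0.17 (adjusted p = 0.483).

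The 37 tested members that did not pass had log2 differences of -0.43 to 0.44, and the widest of their 95% intervals reached 0.44 to either side. All 41 tested members had intervals inside -1 to 1, and 25 inside -0.5 to 0.5. A p that missed the threshold does not show that a member was unchanged.

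Many members have several probe sets, which read different parts or isoforms of a transcript. Of 113 probe sets for 43 members, 95 were tested, and 5 were lower and 1 higher, against 3.70% called over all probe sets. Of 27 members with 2 or more tested probe sets, 15 had all on the same side of 0 and 12 did not. Kdm2b lay at 0.18 for its brighter probe set, whose name marks a sequence shared between transcripts, and at -0.27 for the other. The log2 ratio of the dimmer to the brighter Kdm2b probe set was -0.56, -0.68 and -0.47 on luciferase replicates 1, 2 and 3 and -0.76, -1.44 and -0.89 on KIAA1718 replicates 1, 2 and 3. These ratios did not overlap between groups. Over the 27 members, 54 such ratios to the brightest probe set were formed, and 6 did not overlap, 1 each in Kmt2c, Kmt5b, Kdm1a, Kdm2b, Kdm5b and Kdm6b. The mean ratio differed between groups by 0.47 for Kmt2c, 0.35 for Kmt5b, 0.23 for Kdm5b, -0.30 for Kdm1a, -0.36 for Kdm6b and -0.45 for Kdm2b. They are given as a description, with no test. The share of such ratios without overlap over all genes was not computed. Groups of 3 arrays without overlap have a two-sided exact permutation p of 0.1. A share of 0.1 of the 54 ratios would thus not overlap without any difference. The 6 found lie near that share and are not read as differences between isoforms. The dimmer probe sets in the Kmt2c and Kdm5b ratios had normalized signals of only 8.26 to 16.5 and 6.06 to 12.2. These lie near or below the 16 added before log2.

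**Figure D3:**
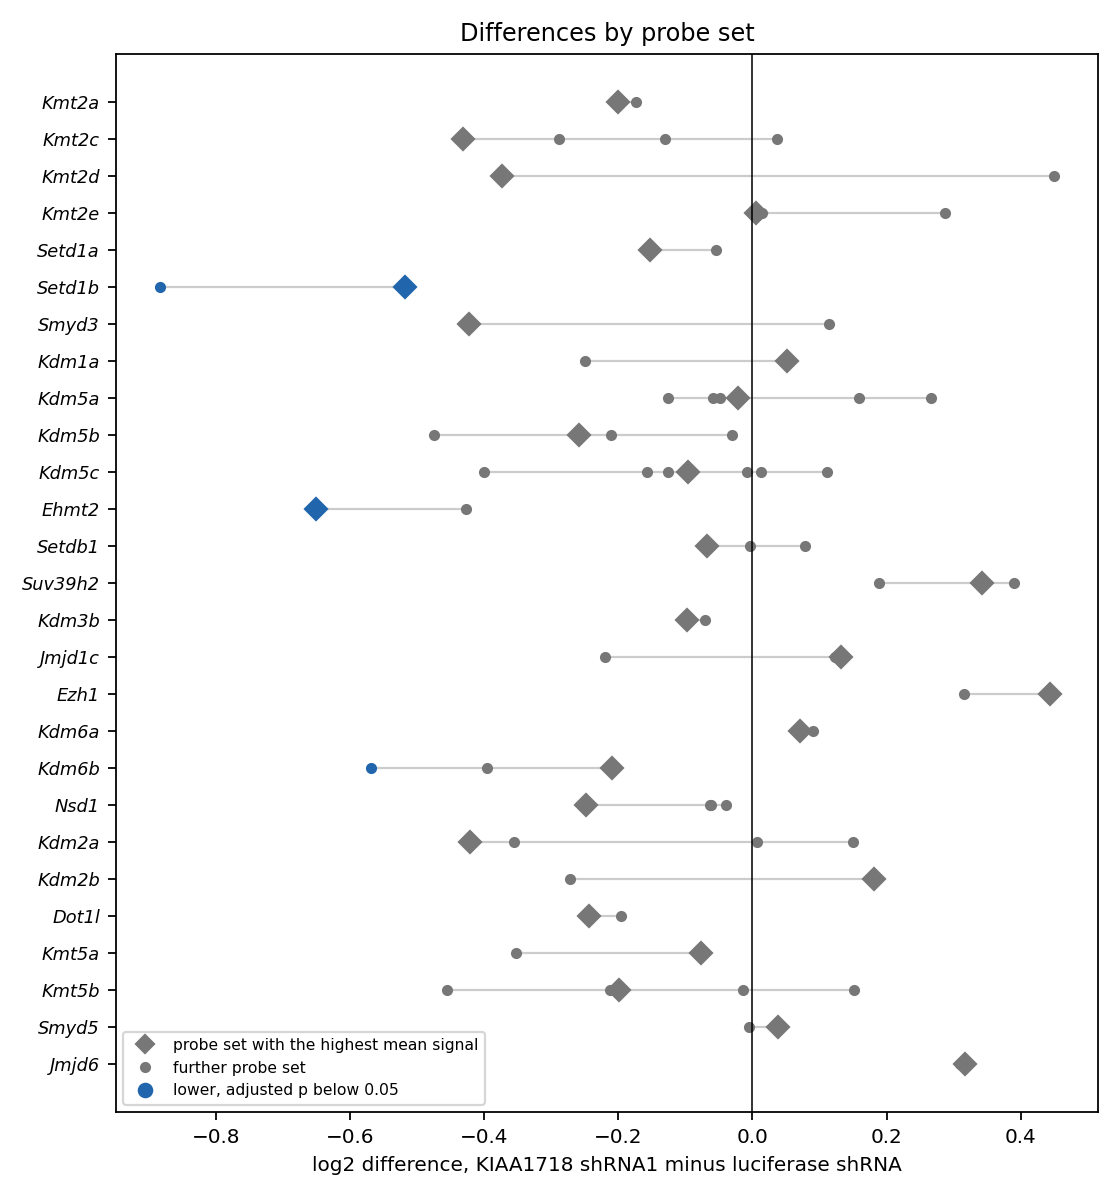
Log2 difference between KIAA1718 shRNA1 and luciferase shRNA (x axis) for every tested probe set of the 27 members with at least 2. Diamonds are the probe set with the highest mean signal, small circles further ones, and blue marks an adjusted p below 0.05. Both probe sets of Setd1b are blue, at -0.52 and -0.88, and those of Kdm2b lie on opposite sides of 0.

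Ratios between related enzymes were compared within each array for 14 pairs, of which 13 had both genes tested. For 6 pairs the ratios did not overlap between groups. The share for pairs of other genes was not computed, and taken singly 27.9% of all genes tested did not overlap. The smallest p that the exact permutation test can give here is 0.1, and adjusted over the 13 pairs it was 0.217. The log2 ratio of Ehmt2 to Ehmt1 was 0.38 ± 0.13 in controls and -0.37 ± 0.14 with the KIAA1718 shRNA (SD, n = 3), a shift of -0.75 between the groups (two-sided exact p = 0.1). That of Ezh2 to Ezh1 shifted by -0.52, that of Kdm6b to Kdm6a by -0.28, that of Kdm1b to Kdm1a by 0.27, that of Kdm4c to Kdm4a by 0.37 and that of Kdm2b to Kdm2a by 0.60 (exact p = 0.1 for each). With the other tested probe set of Kdm2b the shift against Kdm2a was 0.15, with overlapping groups, and over all 8 combinations of their tested probe sets it was -0.42 to 0.60. With the further probe set of Ehmt2 the shift against Ehmt1 was -0.53, with overlap. With the further probe set of Kdm1a that of Kdm1b was 0.57, and with the further probe sets of Kdm6b that of Kdm6b to the brightest Kdm6a probe set was -0.64 and -0.47, all without overlap. Against the second brightest Kdm6a probe set the brightest of Kdm6b shifted by -0.28, the only combination of that pair with overlap. The ratio of Setd1b to Setd1a, both COMPASS enzymes, shifted by -0.37 with overlapping groups (exact p = 0.3). A level is not compared between genes by these ratios, since probe sets differ in their response.

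**Figure D4:**
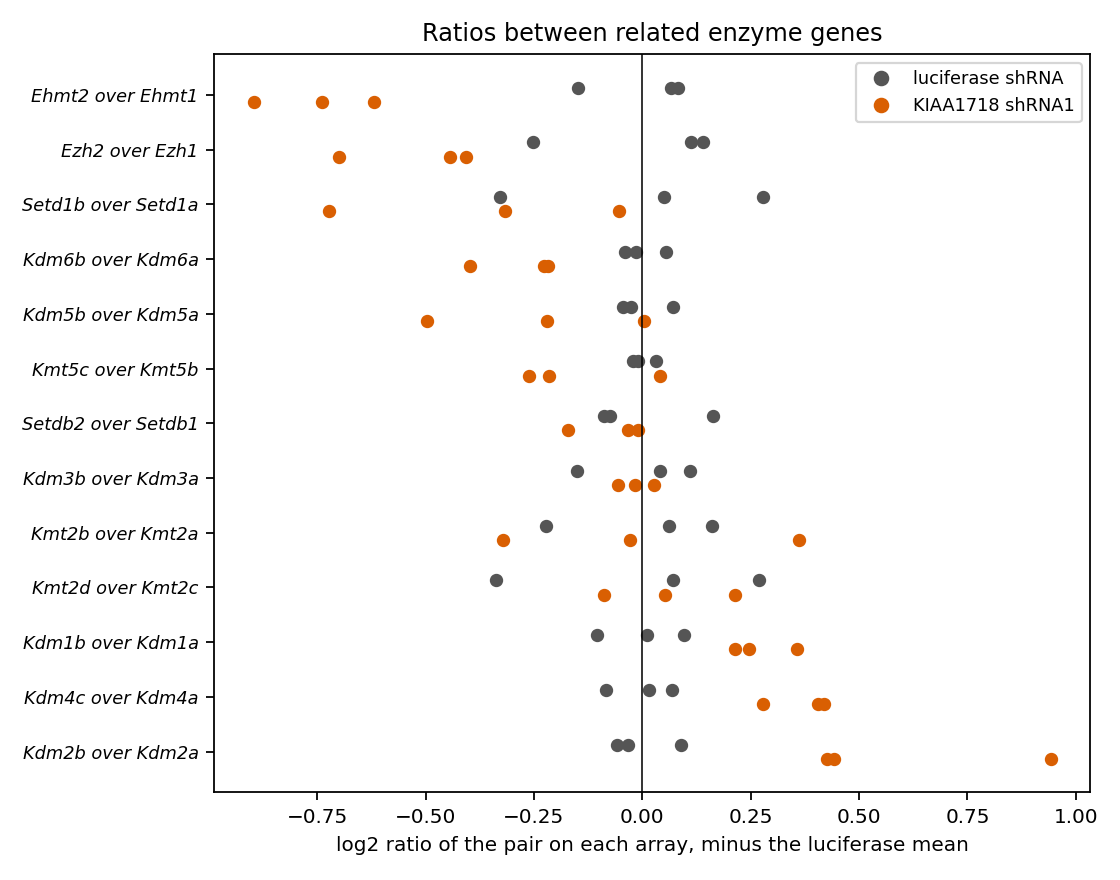
Log2 ratio between the genes of 13 related pairs on each array (x axis), with the mean of the luciferase arrays set to 0. Grey points are the 3 luciferase arrays and orange points the 3 KIAA1718 arrays. The ratio of Ehmt2 to Ehmt1 shows the largest shift of the 13 pairs, -0.75, and the 3 arrays of each group do not overlap.

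The partners with which these enzymes act were read from 8 lists holding 89 genes, 80 of them tested. Of these 2 were higher and 6 lower, with a median of -0.06. A call was thus made for 10% of the partners tested, against 4.87% of all genes tested, in lists chosen with earlier results known. Among 14 COMPASS and MLL complex subunits, which are shared by the Setd1 and Kmt2 enzymes, Wdr5 and Rbbp5 were lower and none was higher, and the median was -0.13 (0.011 with unscaled signals). Both encode core subunits that the enzymes need for activity. Wdr5 had signals of 463, 476 and 483 in controls and of 366, 339.9 and 358 with the KIAA1718 shRNA (log2 difference -0.40 ± 0.09, SE, adjusted p = 0.0306). Rbbp5 went from 277 ± 16.8 to 199 ± 4.21 (SD, n = 3; log2 difference -0.44, adjusted p = 0.0356). Without any 1 array the adjusted p of Wdr5 was 0.0608 to 0.126 and that of Rbbp5 0.0659 to 0.155, so neither passed. Rbbp5 lies on chromosome 1, and centred on it differed by -0.31 (adjusted p = 0.151).

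Of 6 genes whose products bind Dot1l or act with it in transcription elongation, Aff1 and Mllt10 were lower. Aff1 had signals of 131, 158 and 159 in controls and of 88.6, 77.4 and 75.2 with the KIAA1718 shRNA (log2 difference -0.78 ± 0.12, SE, adjusted p = 0.00679). Mllt10, which encodes a direct cofactor of Dot1l, went from 367 ± 40.6 to 231 ± 17.4 (SD, n = 3; log2 difference -0.63, adjusted p = 0.0118). Each kept its direction and lost its call without luciferase replicate 3 (adjusted p = 0.0511 and 0.0587), with the fibroblast covariate (0.0591 and 0.0996) and with unscaled signals (0.0738 and 0.166). At their next probe sets Aff1 differed by -0.14 (adjusted p = 0.644) and Mllt10 by -0.42 (adjusted p = 0.104). Among 10 tested partners of Kdm1a, Gse1, a component of its complexes, was lower at -0.64 (adjusted p = 0.0465), and luciferase replicate 3, at 203 against 132 and 131 on the other controls, stood high; without that array the difference was -0.45 (adjusted p = 0.154). Without luciferase replicate 2 or any 1 KIAA1718 array Gse1 did not pass either (adjusted p of 0.0553 to 0.121).

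The heterochromatin protein gene Cbx1, whose product binds methylated H3K9, was higher among 10 H3K9 partners, at 0.54 (adjusted p = 0.0170); centred on chromosome 11 it differed by 0.39 (adjusted p = 0.0650), and without luciferase replicate 3 or KIAA1718 replicate 3 the adjusted p was 0.0792 and 0.0848. No PRC2 subunit gene of 9 passed, 1 having an unadjusted limma p under 0.05: Suz12, at 0.30 (adjusted p = 0.196). Suz12 also lies on chromosome 11, where the median of 1051 tested genes was 0.14. Of 12 other SET-domain genes, Prdm16 was lower, from 32.9 ± 9.95 to 9.50 ± 3.11 (SD, n = 3; log2 difference -0.93, adjusted p = 0.0123). Its next probe set differed by -0.20 (adjusted p = 0.461), and with the fibroblast covariate the first differed by -0.81 (adjusted p = 0.0835). Of 9 tested other JmjC-domain genes, the Y-linked Uty was higher, at 27.6, 25.5 and 21.9 in controls and 58.8, 82.4 and 57.1 with the KIAA1718 shRNA (log2 difference 0.99 ± 0.15, SE, adjusted p = 0.00449), and passed in all 17 alternatives. Of 16 listed genes that supply or recycle S-adenosylmethionine and 2-oxoglutarate, 11 were tested, the others having no probe set of their own symbol. None of the 11 passed, with 5 at an unadjusted limma p under 0.05. Closest was the methionine synthase gene Mtr at -0.54 (adjusted p = 0.0832), which passed without luciferase replicate 2 (-0.70, adjusted p = 0.0484).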

How the data were processed

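The authors deposited one linear signal intensity per probe set and array. Per the submitters' processing notes these came from GCOS, Affymetrix's array software, with no version or scaling given in the sources used here. The 64 control probe sets were left out, signals were quantile-normalized, 16 was added before log2, and probe sets in the lowest 40% by mean deposited signal (6.65 or less) were removed, leaving 27022. Differences are thus of log2(signal + 16), which shrinks those of dim genes. Groups and replicate numbers came from the sample titles. limma 3.58.1 in R 4.3.3 (lmFit, eBayes with intensity trend) gave all adjusted p-values, two-sided, Benjamini-Hochberg over all probe sets tested, threshold 0.05. The code was tested on simulated data. Exact permutation tests are two-sided. The number of arrays limits the precision.

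Of 45037 probe sets, 34945 had 1 gene symbol, 932 had several and 9160 have no name here. Current symbols came by Entrez number from RefSeq (GRCm38.p6), which also gave chromosomes. Same-numbered arrays deviated together (correlations 0.202, 0.124 and 0.129, against -0.150 to 0.0246 for different numbers). An alternative fit therefore took the replicate number as a block, from the data and not from a label. The main fit, its intervals and the exact permutation tests leave the pairing out. Counts with the block are given below. No arrays held identical values.

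The members, lists and settings were chosen with earlier results of these data known. Genes named are Kdm7a, members past the threshold or without overlap, the 2 smallest p in each residue group, and partners past the threshold or, where none passed, the smallest p. Ehmt1, Ezh2, Kdm1a, Kdm2b, Kdm4c and Kdm6a were named after their values were seen. The differences of the Kdm5 genes and the values of the second Kmt5a and Setd7 probe sets were also added after they were seen. Alternatives varied scaling, pseudocount, filter, variance trend, pairing, a fibroblast covariate, probe set and arrays; chromosome centring was added after seeing the data.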

Additional observations from a re-analysis of the deposited data

How the results depend on the processing

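The 4 changed members became 0 with unscaled signals, 1 without a filter on low signal or with the fibroblast covariate, and 2 without the intensity trend or, in an alternative chosen after seeing the data, with chromosome centring; leaving out 1 array gave 1 to 3. With replicate number as a block it was 5, Ezh1 being the addition, and the block changed no other member's call. The 620 genes changed over the array became 367 (81.2% higher, against 55.0%) with unscaled signals, 197 without the filter, 388 without the trend, 1000 with the block, 185 with the fibroblast covariate, and 161 to 525 without 1 array. The 8 changed partner genes became 3 with unscaled signals, 3 without the filter, 4 without the trend, 1 with the covariate, 4 at the next probe set, 5 with chromosome centring and 2 to 6 without 1 array. The median difference of the members, -0.10, was 0.028 with unscaled signals, where that of all genes was 0.11, and -0.19 to -0.029 without 1 array. Pairs without overlap numbered 6 to 8 without 1 array. Dropping an array cannot make separate groups overlap at fixed values, so this range does not measure stability. With the fibroblast covariate Ehmt1 was at -0.030, Ezh2 at 0.029 and Kdm1a at -0.018, and with unscaled signals Ezh2 was at 0.062. At the next probe set Kdm1a was at -0.25, Kdm2b at -0.27, Kmt5b at 0.15 and Smyd3 at 0.11. Of 712 values of the 42 named genes under 17 alternatives, 571 kept direction and side of the threshold, 129 lost a call, 4 gained one and these 8 changed sign. Only 19 of the 42 were called in the main fit, so the 129 lost calls all fell on those 19 genes. Beyond the construction of each alternative, the cause of these changes was not tested. Signals near the filter carry little above background, and detection calls were not used here.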
